A study of Mus musculus with 6 samples.

Results

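The genes examined here set the pace of the G1 phase of the cell cycle: the D cyclins Ccnd1, Ccnd2 and Ccnd3, the CDK inhibitors Cdkn1a, Cdkn1b, Cdkn2a, Cdkn2b and Cdkn2c, the retinoblastoma gene Rb1 and the p53 gene Trp53. They were taken as the rows of the count tables whose gene name equals one of these symbols, which gave 10 genes of the 25722 listed, and all 10 passed the filter on low counts that kept 13842 genes for testing. After RA none of the 10 passed the test across all libraries, where 0.0433% of all genes tested did. Ccnd2 had a log2 fold change of -0.77 that passed when a library set, itself read from these counts, was taken as a covariate. That fit called 0.795% of all genes tested lower and 0.744% higher. Ccnd2 no longer passed when any one of 4 of the 6 libraries was left out. A further 4 genes (Ccnd1, Cdkn2c, Trp53 and Cdkn1b) parted the libraries by that set and not by treatment, as 23.4% of all genes tested did with set 1 higher and 24.4% with set 1 lower.

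D cyclins bind CDK4 and CDK6, and the active kinases phosphorylate the retinoblastoma protein, which then releases E2F factors that drive the genes of DNA replication. The INK4 proteins, encoded by Cdkn2a, Cdkn2b and Cdkn2c, bind CDK4 and CDK6 themselves, while the Cip/Kip proteins p21 (Cdkn1a) and p27 (Cdkn1b) bind cyclin and CDK together. p53 induces Cdkn1a, and Arf, the other product of Cdkn2a, protects p53 from the ubiquitin ligase Mdm2. In mesenchymal cells in culture these genes are widely read as marks of cycling, contact arrest and senescence, and retinoids are known to slow the cycle of many cell types.

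RNA of cells labelled BMSCs, adherent cells cultured from the bone marrow of C57BL/6 mice, was sequenced from 3 control libraries (DMSO, the solvent) and 3 libraries treated with all-trans retinoic acid (RA). Per the labels, RA was given at 1 μM and both treatments lasted 48 h, while the study's methods give a lower dose and a shorter time. All cultures shared 5% O2, 20% serum and 10 μM of a ROCK inhibitor, and the age and sex of the mice were not given in the sources used here. The labels count 2 biological replicates, whereas each group has 3 libraries, and nothing says that they came from separate animals, so p-values measure only the spread between these libraries, which may be technical.

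The libraries held 14737636 to 18511905 counts, and the treatment left its mark in Cyp26b1, an RA-degrading enzyme, which rose by 4.35 on the log2 scale (edgeR quasi-likelihood test, adjusted p = 0.00207). The first principal component, with 57.2% of the variance of the 1000 most variable genes, parted control 2, RA 1 and RA 2 (library set 1) from control 1, control 3 and RA 3 (library set 2). These sets were read from the counts and are in no label, so differences between them are described without a test. The label BM-MSC was checked against cell type markers. The 15 macrophage markers summed to 19600 to 21770 CPM (normalised read count, with TMM scaling) in every library. Of these, 11 were lower in all libraries of set 1 and 2 were higher, where 24.4% and 23.4% of all genes tested were. Adgre1, the F4/80 antigen, was lower, at 4463 to 5066 CPM in set 1 and 5752 to 6379 CPM in set 2. Lyz2 was higher, at 8722 to 9779 CPM in set 1 and 5543 to 6629 CPM in set 2. The macrophage sums of the sets overlapped. Of 15 mesenchymal stromal markers, Thy1, Nt5e and Lum lay near 0, at 0 to 1.12 CPM, while the list summed to 1735 to 4542 CPM. Others were clearly present, such as Col1a1 at 414 to 1648 CPM, Cxcl12 at 368 to 578 CPM and Pdgfrb at 60.3 to 140 CPM. Of its 12 tested markers 5 (Pdgfra, Pdgfrb, Eng, Prrx1 and Vcam1) were higher in all libraries of set 1 and 0 lower, beside the same shares. Macrophage markers thus stood above stromal ones in sum in every library. That goes against the label as a full account of the cells, though stromal markers were expressed too. The libraries are called BMSC here only as they are labelled. The summed level was 28.7 to 46.2 CPM for 7 osteoclast markers, 6.81 to 17.2 CPM for 5 endothelial markers and 3.03 to 4.26 CPM for 3 neutrophil markers. In such bulk RNA, fewer cells of a type and less RNA per cell cannot be told apart.

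Promoter sequence from RefSeq (GRCm38.p6, 250 bases before each start site) was found for 7 of the genes, in 11 windows. Ccnd1, Ccnd2 and Rb1 were not among them. Shown here, 5′ to 3′ and ending before the first annotated exon base, are the windows of the 2 start sites whose reads share the Cdkn2a row, the window of its neighbour Cdkn2b, the one gene whose RA and control libraries did not overlap, and the window of the first start site of Ccnd3. Capitals mark matches, on either strand, to the retinoid receptor half-site (AGGTCA or GGTTCA), to E2F letters (TTTGGCGC, TTTCGCGC, TTTCCCGC or TTTGCCGC) and to the FOXO letters TGTTTAC.
Cdkn2a, window of the first exon of Ink4a, chr4:89282193-89282442, minus strand: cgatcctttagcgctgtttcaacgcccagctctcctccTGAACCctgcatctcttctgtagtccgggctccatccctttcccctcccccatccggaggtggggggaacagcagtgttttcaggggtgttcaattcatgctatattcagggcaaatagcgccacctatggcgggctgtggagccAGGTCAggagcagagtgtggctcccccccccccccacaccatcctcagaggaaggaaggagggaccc
Cdkn2a, window of the first exon of Arf, chr4:89294654-89294869, minus strand: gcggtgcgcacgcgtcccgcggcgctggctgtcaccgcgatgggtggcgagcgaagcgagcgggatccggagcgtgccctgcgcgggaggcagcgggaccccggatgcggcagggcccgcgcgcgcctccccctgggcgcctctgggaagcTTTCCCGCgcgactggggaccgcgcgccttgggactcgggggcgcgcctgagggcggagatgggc
Cdkn2b, chr4:89311040-89311282, minus strand: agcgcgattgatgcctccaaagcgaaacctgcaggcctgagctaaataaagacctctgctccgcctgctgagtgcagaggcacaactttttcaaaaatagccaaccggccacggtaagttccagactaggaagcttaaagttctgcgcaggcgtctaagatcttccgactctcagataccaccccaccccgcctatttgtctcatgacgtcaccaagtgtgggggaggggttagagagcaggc
Ccnd3, chr17:47504801-47505050, plus strand: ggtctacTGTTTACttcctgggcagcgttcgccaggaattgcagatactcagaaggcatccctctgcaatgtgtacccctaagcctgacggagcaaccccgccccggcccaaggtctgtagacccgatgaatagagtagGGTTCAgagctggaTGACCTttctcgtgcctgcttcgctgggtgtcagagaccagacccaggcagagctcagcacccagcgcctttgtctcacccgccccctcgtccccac

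The Ink4a window held half-site matches 67 and 212 bases before its start site. The Arf window held an E2F match 65 bases before the first exon base of the annotation, and the Cdkn2b window held no match. The Ccnd3 window held half-site matches 97 and 111 bases and a FOXO match 243 bases before its start site. Over the 11 windows, 3 held a half-site, 1 an E2F match and 1 a FOXO match, while of 32851 mouse windows of this length 21.5% held a half-site, 1.86% an E2F match and 3.17% a FOXO match. A match is a description of letters and not a site of binding.

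Per length of exon, Cdkn1a, Ccnd1 and Cdkn2a stood highest. The mean over 6 libraries was 72.6 ± 10.2 RPKM (SD, n = 6) for Cdkn1a, 52.1 ± 22.0 RPKM for Ccnd1 and 48.6 ± 11.6 RPKM for Cdkn2a. Cdkn1a lay above Ccnd1 in 4 of 6 libraries and Ccnd1 above Cdkn2a in 2 of 6, so that neither pair of neighbours differed beyond its spread, while Cdkn1a lay above Cdkn2a in 6 of 6. Cdkn2a lay above Cdkn2b (33.0 ± 7.08 RPKM) in 6 of 6 libraries. Ccnd2 followed at 26.5 ± 9.46 RPKM, below Cdkn2b in only 4 of 6 libraries. Trp53 stood at 18.1 ± 3.10 RPKM, which was above Rb1 (13.0 ± 1.96 RPKM) in 6 of 6. The last 4 genes, Rb1, Cdkn1b (11.3 ± 3.62 RPKM), Cdkn2c (10.8 ± 4.11 RPKM) and Ccnd3 (9.22 ± 1.29 RPKM), each lay above the next in only 3 of 6 libraries. The order depends on the length used. After the data were seen, the length of the longest coding transcript was tried in place of all exons. Ccnd2 then stood at 39.4 RPKM and place 4, Trp53 at 39.2 RPKM and place 5 and Ccnd3 at 38.3 RPKM and place 6. Cdkn2b, at 33.0 RPKM, fell to place 7 and Cdkn1b, at 11.3 RPKM, to place 10. Cdkn1a (124 RPKM), Ccnd1 (65.6 RPKM) and Cdkn2a (63.6 RPKM) stayed in front.

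Across all 6 libraries, edgeR's quasi-likelihood test with Benjamini-Hochberg adjustment and a minimum of 1.5-fold called 0 of the 10 genes, against 6 of 13842 genes (0.0433%). At an unadjusted p under 0.05 it passed 1 of them, Cdkn2b, where 5.25% of the genes tested passed, and DESeq2 also called 0 and passed 1, where 5.93% passed. The median log2 fold change of the 10 genes was -0.19, beside -0.018 over all genes tested. Only Cdkn2b had all RA libraries below all control libraries, where 6.87% of genes tested did, and none had all RA libraries above, where 5.71% did. With 3 libraries a group the exact two-sided permutation test of one gene cannot go below 0.1.

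**Figure D1:**
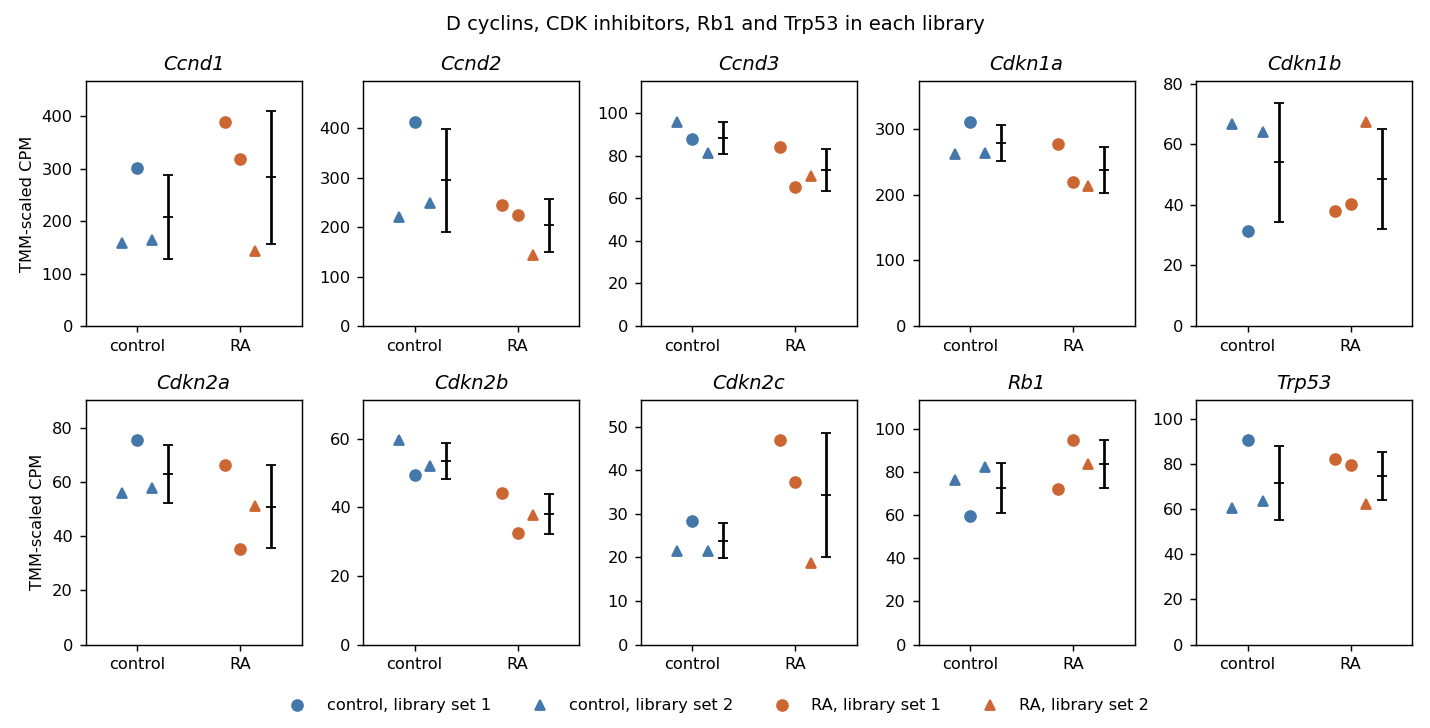
TMM-scaled CPM (y axis, linear, from 0) of each of the 10 genes in the 3 control and 3 RA libraries; circles are library set 1, triangles library set 2, and the black bar is the group mean ± SD. Cdkn2b is the one gene with every RA point, at 32.5 to 44.3 CPM, below every control point, at 49.4 to 59.5 CPM, and Ccnd1 and Cdkn1b part by symbol and not by group.

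Among the D cyclins, Ccnd2 (chromosome 6, 127125162 to 127152193, GRCm38, minus strand), a D cyclin needed in ovarian granulosa cells, was the only one of the 10 genes called in the fit with the library set. Its control libraries 1 to 3 stood at 220.7, 413 and 249.9 CPM and its RA libraries at 245, 224 and 144 CPM. The groups overlapped, since RA 1 and RA 2 lay above control 1, but within each library set every RA library lay below every control. The log2 fold change was -0.53 ± 0.30 (SE) with adjusted p = 0.795 without a covariate, and it was -0.19 without control 2 and -0.33 without RA 3. With the library set as a covariate Ccnd2 fell by 0.77 ± 0.087 (SE) on the log2 scale, with adjusted p = 0.00861. The set was read from these same counts, so the p-values of this fit can be too small. That fit called 110 of 13842 genes lower after RA (0.795%) and 103 higher (0.744%). The call rests on several libraries: without control 2 the change was -0.70 with adjusted p = 0.177, without control 3 -0.74 with 0.0763, without RA 3 -0.82 with 0.0672 and without control 1 -0.81 with 0.053, while it held without RA 1 (adjusted p = 0.0175) or RA 2 (adjusted p = 2.635e-04). The collagen Col1a1, a stromal marker, was at 732, 1648 and 779.5 CPM in the controls and at 1131, 563 and 414 CPM after RA, and the summed mesenchymal markers were at 2360, 4542 and 2611 CPM and at 3536, 2299 and 1735 CPM. Control 2 was the highest and RA 3 the lowest library in all 3 measures. The sum is mostly that of the collagens Col1a1, Col1a2 and Col3a1, and other stromal markers ran differently: of the 12 tested, 6 had a log2 fold change above 0 after RA and 6 below, with a median of 0.0064, and Cxcl12, at 368, 443 and 413 CPM in the controls and 578, 513 and 462 CPM after RA, was higher in every RA library. The part of stromal cells in the Ccnd2 difference was not tested.

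Ccnd1 (chromosome 7, 144929931 to 144939925, minus strand), the D cyclin most directly induced by mitogens, followed the library sets. Its level was 158, 301 and 164 CPM in the controls and 389, 317.5 and 143 CPM after RA. The set 1 libraries, at 301 to 389 CPM, all lay above the set 2 libraries, at 143 to 164 CPM, a 2.15-fold difference of the mean log2 levels. RA against control gave a log2 fold change of 0.45 ± 0.41 (SE, adjusted p = 0.809), which was 0.034 ± 0.12 (adjusted p = 0.906) with the set as a covariate and 0.17 (without RA 1) to 0.83 (without control 2) without single libraries. The RA libraries were higher than the control within set 1, by 0.22 on the log2 scale, and lower within set 2, at -0.17, a difference between sets that was not tested. Exons of LTO1 lie over 1100 bases of Ccnd1 on the other strand, with 233 to 390 counts a library beside 2099 to 6998 of Ccnd1.

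Ccnd3 (chromosome 17, 47505051 to 47599691, plus strand), needed for the expansion of early lymphocytes, varied least of the D cyclins. The control libraries held 96.0, 87.8 and 81.3 CPM and the RA libraries 84.4, 65.4 and 70.3 CPM. Only RA 1 and control 3 overlapped, and the log2 fold change was -0.27 ± 0.14 (SE, adjusted p = 0.795). Exons of Bysl lie over 361 bases of Ccnd3 on the other strand, and Bysl had 430 to 1017 counts a library beside 1031 to 1651 counts of Ccnd3. How the counting treated strand is not given in the sources used here, so reads of the shared bases cannot be told apart.

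The balance between Ccnd1 and Ccnd2 stood higher in every RA library than in every control. The ratio of Ccnd1 to Ccnd2 counts was 0.716, 0.727 and 0.656 in the controls and 1.59, 1.42 and 0.997 after RA, a mean of 0.700 ± 0.0385 (SD, n = 3) against 1.33 ± 0.304. The same order held within each library set. This ratio was chosen after its values were seen and carries no test. Of the summed D cyclin RPKM, Ccnd1 made up 49.3% to 54.2% in the controls and 56.6% to 69.9% after RA, and Ccnd2 34.5% to 37.6% and 22.0% to 28.4%. The Ccnd3 share instead parted the sets, at 8.06% ± 0.473 (SD, n = 3) in set 1 and 14.7% ± 1.51 in set 2, while the Ccnd3 level itself overlapped between the sets, at 79.2 ± 12.0 and 82.6 ± 12.9 CPM, and Ccnd1 was the higher in set 1. These shares rest on the length of all exons. With the longest coding transcript, added after the data were seen, the Ccnd3 share was 21.5% ± 0.913 in set 1 and 34.7% ± 2.81 in set 2, the Ccnd2 share 28.5% to 34.9% in the controls and 21.2% to 24.1% after RA, and the Ccnd1 share 34.5% to 42.9% and 40.6% to 56.9%, where the groups overlapped.

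**Figure D2:**
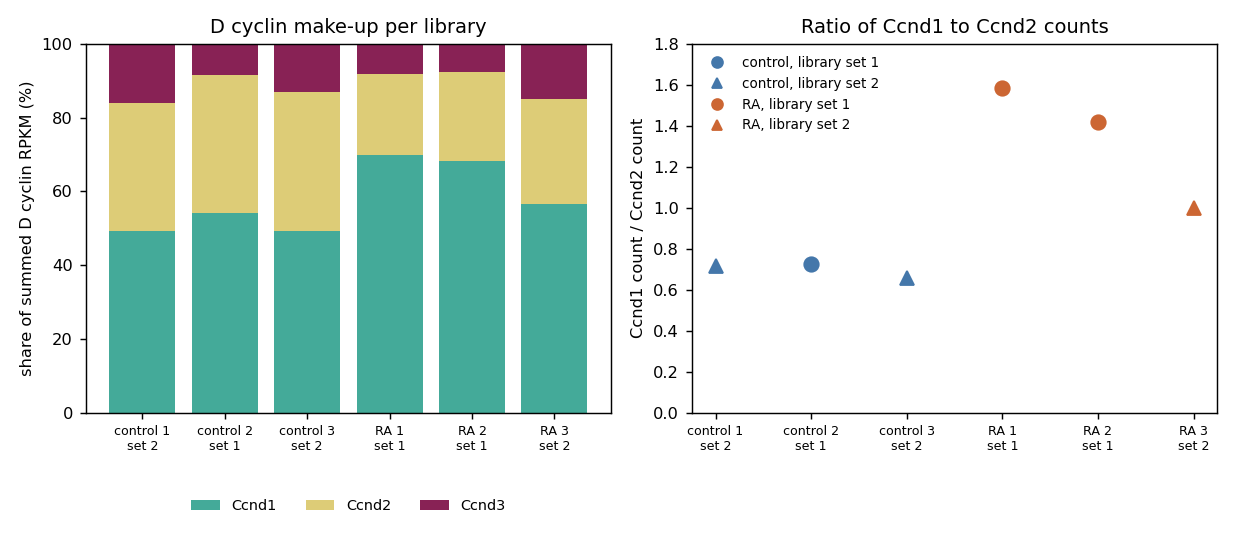
Left, the share (%) of the summed D cyclin RPKM, by the length of all exons, taken by Ccnd1, Ccnd2 and Ccnd3 in each of the 6 libraries; right, the ratio of Ccnd1 to Ccnd2 counts in each library, with circles for library set 1 and triangles for set 2. The 3 control ratios lie at 0.656 to 0.727 and the 3 RA ratios at 0.997 to 1.59.

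Of the Cip/Kip inhibitors, Cdkn1a (chromosome 17, 29090976 to 29100727, plus strand) had the narrowest range of the 10 genes over the libraries, 0.54 on the log2 CPM scale. Its control libraries were at 261, 311 and 264 CPM and its RA libraries at 277, 219.9 and 214 CPM. RA 1 lay among the controls, and the log2 fold change was -0.23 ± 0.15 (SE, adjusted p = 0.795), and -0.13 without control 2. With the set as a covariate it was -0.31 ± 0.10, with an unadjusted p = 0.0173 and an adjusted p = 0.235.

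Cdkn1b (chromosome 6, 134920401 to 134925513, plus strand), whose product p27 holds cells in quiescence, ran against Ccnd1. It stood at 66.6, 31.3 and 64.2 CPM in the controls and at 37.9, 40.5 and 67.5 CPM after RA. Set 2, at 64.2 to 67.5 CPM, lay above set 1, at 31.3 to 40.5 CPM, with no overlap and a 1.82-fold difference. The log2 fold change after RA was -0.15 ± 0.35 (SE, adjusted p = 0.915) and turned to 0.18 ± 0.099 (adjusted p = 0.419) with the set as a covariate.

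Among the INK4 genes, the neighbours Cdkn2a and Cdkn2b on chromosome 4 were both lower in mean level after RA, and neither passed the adjusted test. Cdkn2b (89306299 to 89311039, minus strand), which encodes p15, was at 59.5, 49.4 and 52.0 CPM in the controls and at 44.3, 32.5 and 37.7 CPM after RA, with no overlap between the groups. Its log2 fold change was -0.49 ± 0.15 (SE) with an unadjusted p = 0.0157 and an adjusted p = 0.776, and with the set as a covariate -0.46 ± 0.14 with adjusted p = 0.209. Leaving out 1 library at a time gave -0.59 to -0.39, with no adjusted p below 0.335. The 2 library sets overlapped in Cdkn2b.

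Cdkn2a (89274471 to 89294653, minus strand) pools reads of its 2 coding transcripts, which start at 89282192 (Ink4a) and 89294653 (Arf) and share their later exons, so the row does not part the CDK inhibitor from the p53 regulator. It was at 55.8, 75.4 and 58.0 CPM in the controls and at 66.2, 35.4 and 51.0 CPM after RA. RA 1 lay among the controls, and RA 2 was the lowest library. The log2 fold change was -0.31 ± 0.25 (SE, adjusted p = 0.803), and it was -0.11 without RA 2, -0.15 without control 2 and -0.52 without RA 1.

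Cdkn2c (chromosome 4, 109660876 to 109667189, minus strand), which encodes p18 and is known as an E2F-responsive gene, sided with Ccnd1. It stood at 21.4, 28.5 and 21.5 CPM in the controls and at 46.9, 37.3 and 18.8 CPM after RA, so that set 1, at 28.5 to 46.9 CPM, lay above set 2, at 18.8 to 21.5 CPM, by 1.79-fold. RA against control gave 0.53 ± 0.33 (SE) on the log2 scale with adjusted p = 0.795, and 0.20 ± 0.19 with the set as a covariate. It ranged from 0.26 (without RA 1) to 0.82 (without RA 3). Within set 1 the RA libraries were 0.55 above the control and within set 2 at -0.19, a contrast of the sets that was not tested.

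Rb1 (chromosome 14, 73183673 to 73325822, minus strand), the brake that the D cyclin kinases release, was at 76.1, 59.8 and 82.4 CPM in the controls and at 72.4, 94.7 and 83.6 CPM after RA. The groups and the sets overlapped, and the log2 fold change was 0.20 ± 0.17 (SE, adjusted p = 0.804), with 0.092 without control 2, 0.10 without RA 2 and 0.32 without RA 1. Exons of Rcbtb2 and Lpar6 lie over 488 and 408 bases of Rb1 on the other strand, with 562 to 1082 and 246 to 503 counts a library beside 1087 to 1494 of Rb1.

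Trp53 (chromosome 11, 69580359 to 69591873, plus strand) was at 60.7, 90.5 and 63.6 CPM in the controls and at 82.2, 79.4 and 62.4 CPM after RA. Its log2 fold change was 0.060 ± 0.20 (SE, adjusted p = 0.943) and -0.080 ± 0.083 with the set as a covariate. Set 1, at 79.4 to 90.5 CPM, lay above set 2, at 60.7 to 63.6 CPM, by 1.35-fold and without overlap.

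**Figure D3:**
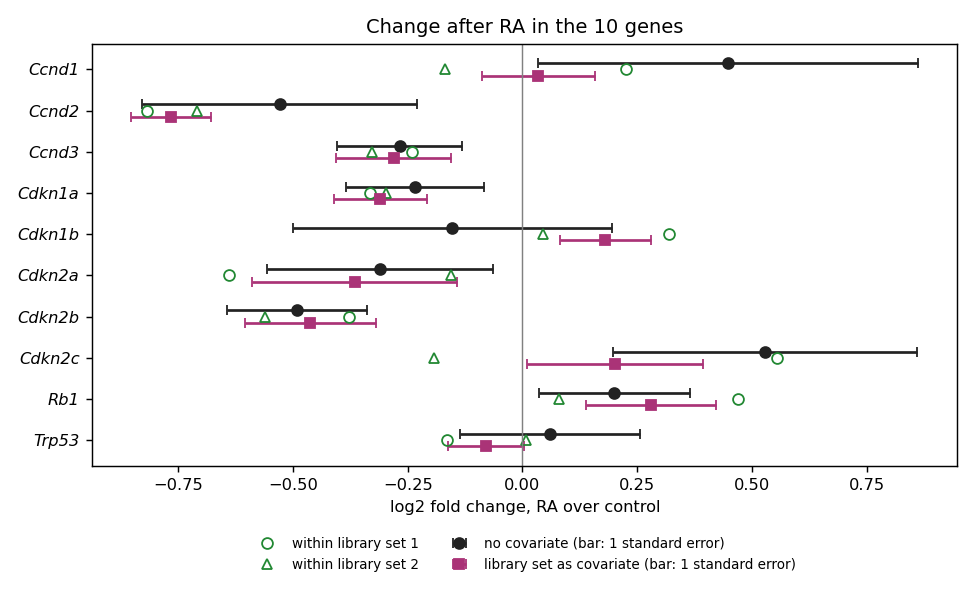
Log2 fold change of RA over control (x axis) for the 10 genes; black circles are the fit without covariate and purple squares the fit with the library set, each with a bar of 1 standard error, and open green symbols are the difference of mean log2 CPM within set 1 (circles) and set 2 (triangles). Ccnd2, Ccnd3, Cdkn1a, Cdkn2a and Cdkn2b lie below 0 in every estimate, and of these Ccnd2 at -0.77 passed the test with the set.

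Set side by side, 5 of the 10 genes (Ccnd2, Ccnd3, Cdkn1a, Cdkn2a and Cdkn2b) had every RA library below every control within both library sets, where 23.5% of the genes tested did. A further 2 (Rb1 and Cdkn1b) had every RA library above every control within both sets, where 18.5% did. Each set here compares 1 library with 2. Between the sets, 3 genes (Ccnd1, Cdkn2c and Trp53) were higher in all libraries of set 1, where 23.4% of the genes tested were, and 1 (Cdkn1b) was lower, where 24.4% were. The counts of 3 and 1 in 10 are thus no result about these genes. As given above, 11 of 15 macrophage markers were lower and 2 higher in all libraries of set 1. Of 12 stromal markers 5 were higher and 0 lower. The part of these markers in the levels of Ccnd1, Cdkn2c, Trp53 and Cdkn1b was not tested. The count of 4 genes that parted the sets was 7 without RA 2. With fewer libraries any gene overlaps less readily, and the share of all genes was not computed there. The count of 7 is thus no result about these genes either.

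The profiles nearest to those of the 2 genes with the widest range were sought over the 6 libraries, as the smallest root mean square distance of centred log2 CPM. Nearest to Ccnd1 lay Fen1, the flap endonuclease of DNA replication (0.0745), Gtse1, a protein of G2 and S phase (0.0817), and Lims2, a focal adhesion protein (0.0932). Nearest to Ccnd2 lay Snx7, a sorting nexin (0.0639), Tgfbr3, the TGF-β co-receptor betaglycan (0.0824), and the protease Pappa (0.0862). The points share library and depth, and nothing about control follows from the likeness. Pappa, for one, stood at 82.6, 169 and 105 CPM in the controls and 108, 89.4 and 53.7 CPM after RA.

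The other genes of the pathway, 80 in 5 lists, were all tested, and edgeR called 0 of them in RA against control, beside 0.0433% of all genes. Of these 80, 3 had an unadjusted p under 0.05 and a higher level after RA, and 1 had a lower level, 4 of 80 beside 5.25% of all genes tested, so that the count is no result about the pathway. DESeq2 and the fit with the library set each called 1, Pmaip1, higher after RA, where they called 136 and 213 of all 13842 genes.

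The 13 other G1 regulators had a median log2 fold change of 0.24 after RA, with 11 above 0 and 2 below, and of 0.045 with the library set as a covariate. Ccnh, the cyclin of the CDK-activating kinase, was at 14.3 ± 2.06 CPM (SD, n = 3) in the controls and 19.9 ± 7.09 CPM after RA, and Cks1b, a CDK-binding subunit, at 15.1 to 30.4 CPM and 19.4 to 40.8 CPM. Those with the smallest p below 0 were Cdk7, the kinase of that complex, at 20.8 ± 1.21 and 20.2 ± 0.632 CPM, and Cdkn1c, the third Cip/Kip gene, which was low in all libraries, at 0.0532 to 3.29 CPM. Cdk4 and Cdk6, the kinases the D cyclins bind, named after their values were seen, were at 74.5 to 124 CPM and 57.5 to 81.0 CPM, and both were higher in all libraries of set 1. In all, 8 of the 13 were higher in all libraries of set 1 and 1 was lower, beside 23.4% and 24.4% of the genes tested.

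Of the 12 pocket proteins and E2F factors, 10 had a fold change above 0 after RA and 2 below, with a median of 0.26 on the log2 scale, or 0.10 once the library set entered the fit. Rbl1, which encodes the Rb relative p107, was at 17.1, 41.8 and 18.8 CPM in the controls and 63.4, 67.6 and 18.2 CPM after RA, so that it parted the sets as Ccnd1 did, and its log2 fold change of 0.94 was 0.36 with the set as a covariate. Tfdp2, a dimer partner of E2F, was at 14.3 ± 0.214 CPM (SD, n = 3) in the controls and 17.1 ± 2.73 CPM after RA, with no overlap and adjusted p = 0.795. The 2 genes below 0, E2f4 and E2f5, had log2 fold changes of -0.037 and -0.064. Again 8 of 12 were higher in all libraries of set 1 and 1 was lower, beside the same 23.4% and 24.4%.

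The 20 E2F targets and cell division genes were the group that parted the sets most, with 20 of 20 higher in all libraries of set 1, beside 23.4% of the genes tested, and a median set difference of 1.92 on the log2 scale. This list was drawn up with earlier results of these data known, and its genes may be among those from which the sets were read. The count of 20 is thus no independent result. The summed level of the 20 genes was 557, 1404 and 555 CPM in the controls and 2108, 2231 and 490.0 CPM after RA. The order of libraries was close to that of Ccnd1 and Cdkn2c. Whether more dividing cells in set 1 had a part in the levels of Ccnd1 and Cdkn2c there was not tested. Their median log2 fold change after RA was 0.94, and 0.36 with the set as a covariate. Ccnb2, a mitotic cyclin, was at 15.0 ± 2.77 CPM (SD, n = 3) in the controls and 27.8 ± 12.1 CPM after RA, with an unadjusted p = 0.048 from edgeR and adjusted p = 0.795, and the mitotic kinase Aurka at 9.79 ± 5.68 and 22.4 ± 13.6 CPM.

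**Figure D4:**
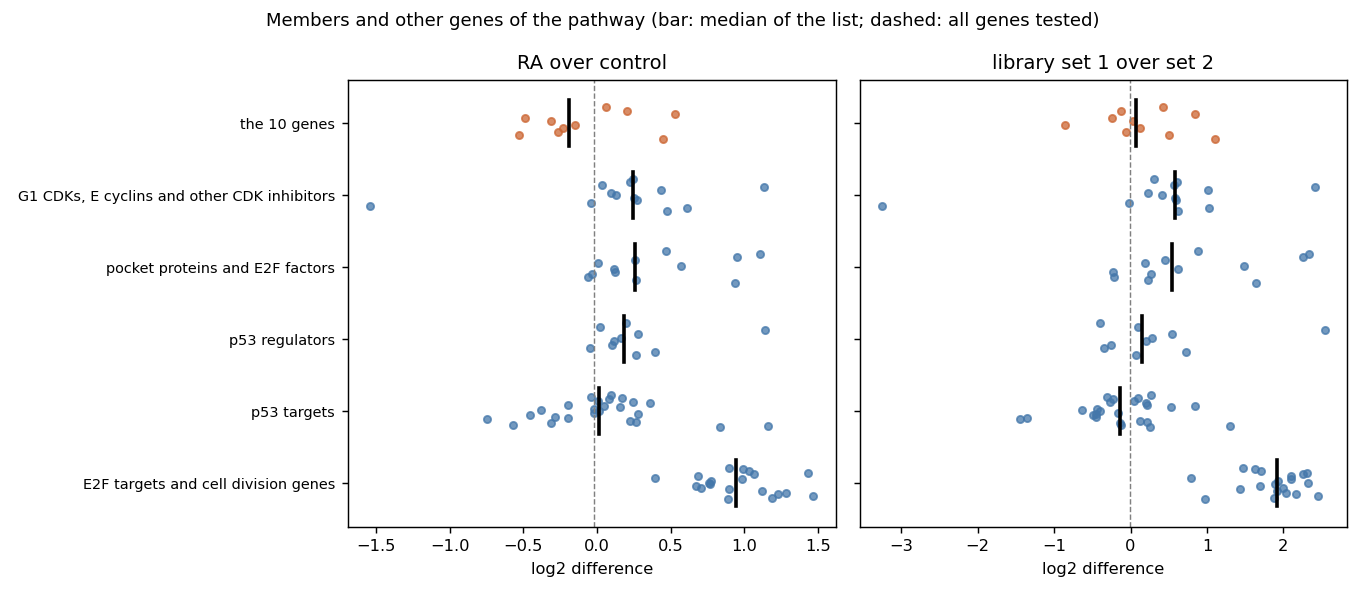
Each point is one gene, for the 10 genes (orange) and 5 lists of other pathway genes (blue); the x axis is the log2 fold change of RA over control (left) or the log2 difference of library set 1 over set 2 (right), the black bar is the median of the list and the dashed line that of all genes tested. The 20 E2F targets and cell division genes lie right of 0 in both panels, with medians of 0.94 and 1.92, while the 10 genes have medians of -0.19 and 0.076.

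Around Trp53, the 10 p53 regulators had a median log2 fold change of 0.18, with 9 above 0. Atm and Chek2, kinases of the DNA damage response, had 0.39 and 0.26, and the coactivator Ep300 had -0.051, and none of the list had an unadjusted p under 0.05. In this list 5 genes were higher in all libraries of set 1 and 2 lower, beside 23.4% and 24.4% of the genes tested. The 25 p53 targets had a median of 0.010, with 14 above 0 and 11 below. Pmaip1, which encodes the apoptosis factor Noxa, stood out of them at 11.8, 11.5 and 12.6 CPM in the controls against 21.01, 22.2 and 21.1 CPM after RA. Its log2 fold change was 0.84 ± 0.13 (SE) with adjusted p = 0.206, and with the set as a covariate it rose by 0.84 ± 0.12, with adjusted p = 0.0167. The set was read from these same counts, so this p can be too small. That fit was not repeated without single libraries for Pmaip1.

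The other p53 targets with small p went both ways. Ckap2, a mitotic spindle protein, had a log2 fold change of 1.17 ± 0.47 (SE) and parted the sets. Phlda3, an Akt repressor, was at 83.5 ± 11.5 CPM (SD, n = 3) in the controls and 56.3 ± 13.7 CPM after RA, with no overlap, an unadjusted p = 0.0303 and an adjusted p = 0.795 from edgeR. Bax, the apoptosis pore protein, was at 148 ± 7.03 and 119 ± 20.8 CPM, again with no overlap, beside adjusted p = 0.795. Mdm2, the ligase that Arf restrains, named after its values were seen, was at 134, 150.5 and 134.5 CPM in the controls and 162, 184.5 and 157 CPM after RA. Of the 25 targets, 4 had all RA libraries above the controls and 3 all below, where 5.71% and 6.87% of the genes tested did. Between the sets, 4 of the 25 were higher in all libraries of set 1 and 8 lower, again beside 23.4% and 24.4%, with a median difference of -0.13 on the log2 scale.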

How the data were processed

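RNA-seq libraries of 3 DMSO-treated and 3 RA-treated mouse cultures labelled BM-MSC were taken up as the counts of reads per gene that the authors deposited, 1 table a library, not normalized. The submitters' processing notes name Bowtie2 2.2.3 and mm10, and the counting program and its use of strand are not given in the sources used here. Samples were grouped by the treatment in the labels. The genes and gene lists were chosen with earlier results of these data known.

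All 25722 identifiers were found in GENCODE M21 (GRCm38), which gave positions and exon lengths, and 24 names turned into dates were replaced. In R 4.3.3, counts were scaled by TMM, filtered with filterByExpr (13842 genes kept) and tested with edgeR 4.0.16 (quasi-likelihood F test, RA against control, no covariate, all 6 libraries), with Benjamini-Hochberg adjustment over all genes tested. A gene was called at an adjusted p under 0.05 and at least 1.5-fold. Log2 CPM used a prior count of 2. RPKM values were computed from TMM-scaled counts and the length of all annotated exons. A count of 3 is worth 0.160 to 0.210 CPM in these libraries, and the smallest count of the 10 genes was 275, so that counting error is small. PCR copies are not independent molecules, and such limits cover counting error only. Libraries of one group differed by 4.56 to 83.1 in chi-square per degree of freedom, so all were kept as separate samples.

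Alternatives were DESeq2 1.42.0, upper quartile or library-size scaling, no filter or at least 10 counts in every library, other thresholds, the replicate block, the library set as a covariate and leaving out each library. Leaving out libraries in the fit with the library set, and transcript length in levels and shares, were added after the data were seen. Named pathway genes were the 2 with the smallest p in each direction in each list. Stra6, Lrat, Lum, Thy1, Nt5e, Calcr, Oscar, Dcstamp, Tek and Emcn fell below the filter. Retinoid response genes, 11 with 9 tested, had 1 call, Cyp26b1, 5 with the library set and 6 with DESeq2. Other experiments of the study were not analysed here.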

Additional observations from a re-analysis of the deposited data

How the results depend on the processing

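The log2 fold changes of the 10 genes were computed under 13 alternatives each, of which 123 over the 10 genes kept direction and side of the threshold, 1 (Ccnd2 with the library set) passed it and 6 turned direction. Cdkn1b turned to 0.18 with the library set as a covariate and ranged from -0.46 to 0.024 when each library was left out, and Trp53 turned to -0.080 and ranged from -0.048 to 0.28. Neither was called in any fit. The cause was not tested. The count of the 10 genes called was 0 in all settings but the library set, which gave 1. Of all genes, 6 were called, 213 with the library set, 136 with DESeq2, 20 without a filter and 491 at an unadjusted p under 0.05 with at least 1.5-fold, and from 0 (without control 1) to 6 (without RA 3) when a library was left out. Of the 80 pathway genes, 0 were called, 1 with the library set, 1 with DESeq2 and 3 at that unadjusted threshold. The count of genes parting the library sets, 4, was 4 to 7 without a library, the highest without RA 2. The share of all genes tested was not computed in these settings, so the counts are no result about the 10 genes.

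The labels number the libraries 1 to 3 in each group. Same-numbered deviations from the group means correlated at -0.51, 0.34 and 0.57. Control 1 and RA 1 lie in different library sets, while the other same-numbered libraries share a set. These values thus cannot decide whether the numbers pair the samples. With the replicate block, 0 of the 10 genes and 4 of all genes were called, with Ccnd2 at -0.51 and Cdkn2b at -0.50. The median of all genes was -0.018 with TMM, 0.025 with library size and 0.0042 with upper quartile scaling.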

Other observations

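The ratio of Cdkn2a to Cdkn2b counts, which share a locus on chromosome 4, was 0.938, 1.53 and 1.11 in the control libraries and 1.495, 1.09 and 1.36 in the RA libraries. The means, 1.19 ± 0.303 (SD, n = 3) and 1.31 ± 0.207, differed by less than the spread between libraries, and the groups overlapped. This ratio was chosen after the values of the genes were seen and carries no test.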
